A study of Schizosaccharomyces pombe with 4 samples.

Results

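The 6 genes described here encode the cytoplasmic translation elongation factors EF-1α, EF-2 and EF-3 of the fission yeast *Schizosaccharomyces pombe*. They were taken by identifier from a list and are 6 of the 12684 features in the count tables. EF-1α is encoded by 3 genes, *tef101* (SPCC794.09c), *tef102* (SPAC23A1.10) and *tef103* (SPBC839.15c). EF-2 is encoded by *eft201* (SPAC513.01c) and *eft202* (SPCP31B10.07), and EF-3 by *tef3* (SPCC417.08) alone.

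RNA was sequenced from vegetative haploid *h-* cells, labelled wild type, in 2 biological replicates of total RNA depleted of ribosomal RNA and 2 of poly(A)+ RNA enriched on oligo(dT) beads. All 4 libraries carried the same genotype, *leu1-32* and *pat1-L95G::kanR*, so that both groups held the analog-sensitive allele of Pat1, a kinase that represses meiosis. The cultures grew for 2 days at 30 °C in minimal medium (EMM) and were harvested at an optical density of 0.8 to 1.0. Total RNA was made into directional libraries and read in pairs of 51 and 35 nucleotides, whereas poly(A)+ RNA was made into libraries with another kit and read in pairs of 150 nucleotides. Kit, read length, instrument and adapter trimming therefore changed together with the fraction and cannot be told apart from it. The libraries held 25530272 to 30650533 counts, of which protein-coding genes took 85.9 to 86.4% in total RNA and 69.3% in both poly(A)+ libraries.

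During elongation, EF-1α bound to GTP brings each aminoacyl-tRNA to the decoding site of the ribosome, and EF-2 then moves the tRNAs and the mRNA by a codon. EF-3 is an ATPase that fungal ribosomes need in addition, and work in budding yeast ties it to the release of the spent tRNA from the exit site. These factors are among the most abundant proteins of growing yeast cells. In fission yeast the EF-1α and EF-2 genes occur as near-identical copies, which matters for sequencing because a short read from a shared stretch fits several genes.

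All 6 genes have 1 exon, and their positions below are those of the deposited tables, which match the RefSeq annotation of assembly ASM294v3 at these genes. On chromosome III, *tef101* spans III:267955-269516 on the minus strand, with a 5′ UTR of 37 nucleotides and a 3′ UTR of 142. On chromosome I, *tef102* spans I:4095132-4096584 on the plus strand, with a 5′ UTR of 70 nucleotides and an annotation that stops at the stop codon, so that any 3′ UTR of this gene lies outside the counted interval. On chromosome II, *tef103* spans II:626004-627522 on the minus strand, with UTRs of 34 and 102 nucleotides. The EF-2 genes are longer, *eft201* at I:2907643-2910261 on the minus strand with UTRs of 32 and 58 nucleotides, and *eft202* at III:537290-539922 on the plus strand with UTRs of 36 and 68. *tef3* spans III:1685645-1688951 on the plus strand, with UTRs of 21 and 142 nucleotides.

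The coding sequences of the 3 EF-1α genes are each 1383 nucleotides long and agree at 1358 positions, or 98.2%. *tef102* and *tef103* differ at 15 positions, in each case the third position of a codon, and their translations of 460 residues do not differ. *tef101* differs from *tef102* at 16 positions and from *tef103* at 19, with 1 residue changed in each case. The longest stretch that all 3 genes share is 218 nucleotides, longer than any read in the study. It lies at coding positions 520 to 737 in each gene, at III:268743-268960 in *tef101*, I:4095721-4095938 in *tef102* and II:626752-626969 in *tef103*, and is shown because no read of 51 or 150 nucleotides that falls inside it can be placed on 1 gene.
EF-1α shared stretch: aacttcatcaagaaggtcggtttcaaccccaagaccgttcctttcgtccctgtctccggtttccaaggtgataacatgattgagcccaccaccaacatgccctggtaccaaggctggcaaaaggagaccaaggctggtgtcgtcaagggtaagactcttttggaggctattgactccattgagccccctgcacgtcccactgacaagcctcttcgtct

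The 3 genes are told apart best near the end of the coding sequence. The 60 nucleotides at coding positions 1291 to 1350 hold 7 of the 25 positions that differ among them, and are printed with these 7 positions in capitals. They lie at III:268130-268189 in *tef101*, I:4096492-4096551 in *tef102* and II:626139-626198 in *tef103*.
tef101: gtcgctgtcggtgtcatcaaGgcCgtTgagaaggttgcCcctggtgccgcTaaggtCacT
tef102: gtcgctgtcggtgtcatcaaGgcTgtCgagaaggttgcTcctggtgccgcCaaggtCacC
tef103: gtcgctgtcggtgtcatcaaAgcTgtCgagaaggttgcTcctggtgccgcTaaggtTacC

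The EF-2 genes are closer still. Their coding sequences of 2529 nucleotides differ at 11 positions, an identity of 99.6%, and their translations of 842 residues do not differ. Between these positions lie 5 identical runs of at least 150 nucleotides, the longest of 587 nucleotides at coding positions 1723 to 2309. The first 60 coding nucleotides hold 4 of the 11 positions, in capitals below, at I:2910170-2910229 in *eft201* and III:537326-537385 in *eft202*.
eft201: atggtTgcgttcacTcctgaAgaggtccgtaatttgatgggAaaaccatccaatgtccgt
eft202: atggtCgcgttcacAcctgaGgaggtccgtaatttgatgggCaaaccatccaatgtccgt

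To express what this likeness means for counting, every read that each gene could give was looked up in the genome on both strands, and the share that occurs exactly once was taken. Of 51-nucleotide reads, 34.9% were found once for *tef101*, 25.2% for *tef102* and 28.0% for *tef103*. For the EF-2 genes the share was 15.3% in *eft201* and 15.8% in *eft202*. Ordered by this share from the lowest among 5113 protein-coding genes, the 5 copies ranked between 72 and 92. The EF-1α and EF-2 copies are thus among the protein-coding genes with the fewest uniquely placed short reads. By contrast, 100% of the reads of *tef3* were found once at every length.

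With 150-nucleotide reads, the share found once was larger, at 70.8% in *tef101*, 51.5% in *tef102* and 68.8% in *tef103*, and at 33.9% in *eft201* and 34.3% in *eft202*. The 51-nucleotide reads found more than once fell only on the other copies of the same factor and nowhere else in the genome. In *tef101*, for instance, 984 such start positions were shared, 817 of them with *tef102* and 825 with *tef103*. Both EF-2 genes shared 2176 start positions with each other. A sum over the copies of 1 factor thus takes in every place these reads fit, whereas the split between copies rests on the reads found once.

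**Figure D1:**
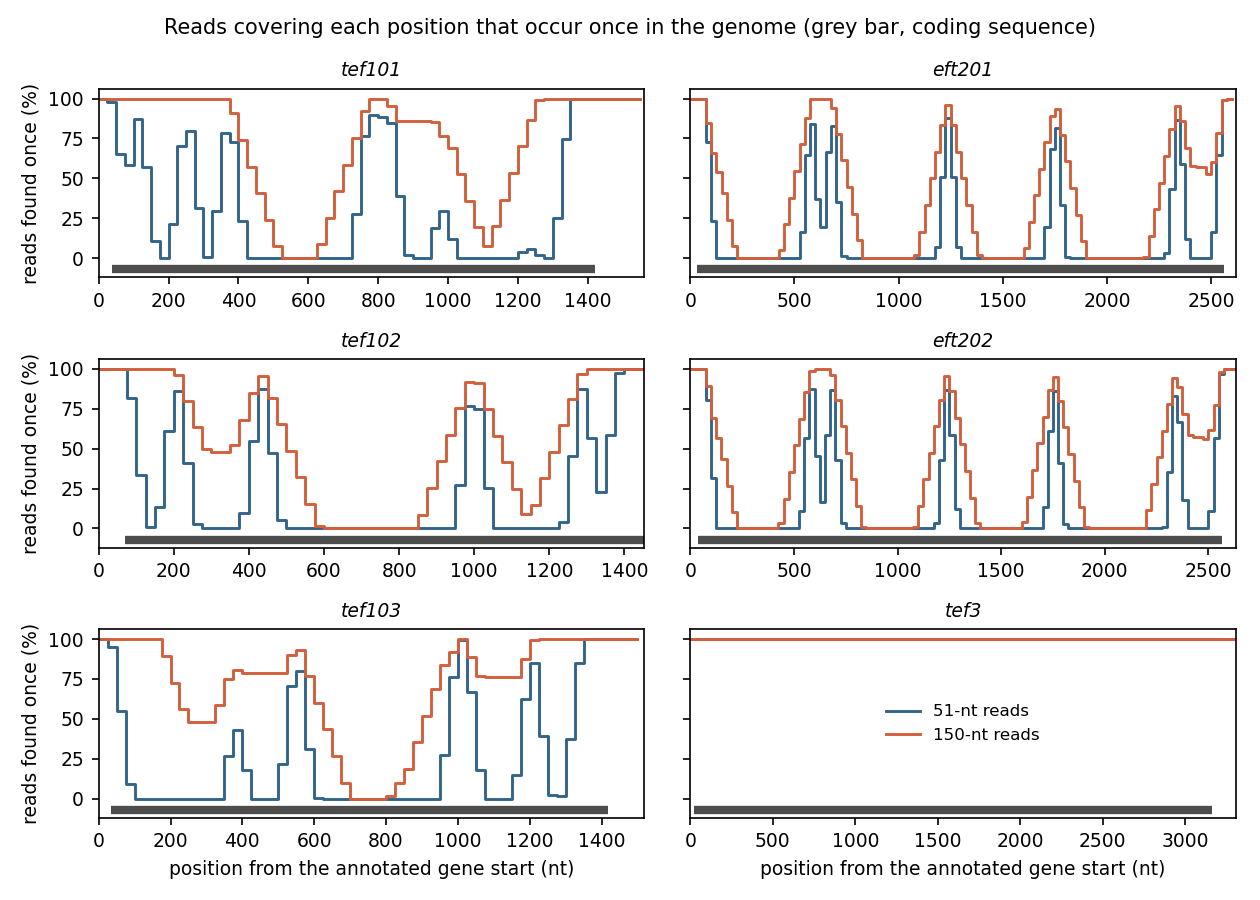
Percentage of the 51-nucleotide (blue) and 150-nucleotide (orange) reads covering each position that occur once in the genome, in bins along each gene, against the distance from the annotated gene start in nucleotides, with the coding sequence as a grey bar. The copies drop to 0% over parts of the coding sequence and reach 100% toward the gene ends, and *tef3* stays at 100% throughout.

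Read pairs are placed more easily than single reads, since 1 end can decide for both. With fragments of 200 nucleotides, the pairs of 51 and 35 nucleotides used for total RNA could be placed once at 47.2% of positions in *tef101*, 34.6% in *tef102*, 39.8% in *tef103*, 23.5% in *eft201* and 23.9% in *eft202*. The pairs of 150 nucleotides used for poly(A)+ RNA could be placed once at 80.7, 61.5, 81.9, 42.9 and 43.2% of positions in the same order. With fragments of 300 nucleotides, these shares were 50.8, 38.8, 41.3, 22.6 and 23.1% for the short pairs and 94.3, 84.1, 90.9, 58.2 and 58.5% for the long pairs. At either length the reads of the 2 fractions could therefore be placed over different parts of the same copies, but over all of *tef3*. Fragment lengths, and whether reads that fit several places were counted, are not given in the sources used here.

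Per kilobase of gene, the EF-1α genes and *tef3* were far above the EF-2 genes within total RNA. Levels are given as RPKM, that is counts divided by the length of the gene in kilobases and scaled to the total of the library, which allows genes of different length to be compared. *tef103* stood at 2840 and 2797 in the 2 total RNA libraries and at 3315 and 3110 in the 2 poly(A)+ libraries. Its libraries did not overlap between fractions on this scale, which does not correct for composition.

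*tef101*, the other highly counted EF-1α gene, stood at 2691 and 2591 in total RNA against 2329 and 2401 in poly(A)+ RNA. *tef102* was the lowest of the 3, at 1297 and 1302 in total RNA against 1367 and 1348 in poly(A)+ RNA. Among protein-coding genes, *tef103* ranked 16 and 17 in total RNA against 8 and 9 in poly(A)+ RNA, *tef101* ranked from 19 to 28 over the 4 libraries, and *tef102* from 87 to 99.

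The EF-2 genes were the lowest of the 6. *eft202* stood at 303 and 314 in total RNA against 295 and 282 in poly(A)+ RNA, and ranked from 300 to 340 among protein-coding genes. *eft201* stood at 198 and 205 in total RNA against 202 and 199 in poly(A)+ RNA, with overlapping fractions, and ranked from 398 to 461. How many of all genes overlap between fractions on this scale was not counted. These are levels per kilobase of annotated gene, in which stretches without a uniquely placed read count in full.

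*tef3* was the member that differed most between the fractions. It stood at 2134 and 2112 in total RNA, which ranked 33 in both libraries, and at 698 and 712 in poly(A)+ RNA, which ranked 189 and 178. The fractions were thus separated by far more than the difference between replicates.

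In total RNA the order of the mean levels per kilobase was *tef103* (2818 ± 30.6, SD, n = 2), *tef101* (2641 ± 70.9), *tef3* (2123 ± 15.5), *tef102* (1299 ± 3.22), *eft202* (309 ± 7.59) and *eft201* (201 ± 4.97). In poly(A)+ RNA it was *tef103* (3212 ± 145), *tef101* (2365 ± 51.03), *tef102* (1357 ± 13.4), *tef3* (705 ± 9.92), *eft202* (288 ± 9.18) and *eft201* (200.2 ± 2.31). Neighbours in either order did not overlap between their 2 libraries, although with 2 values against 2 no exact permutation test can give a p below 0.333. The orders differ only in the place of *tef3*.

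**Figure D2:**
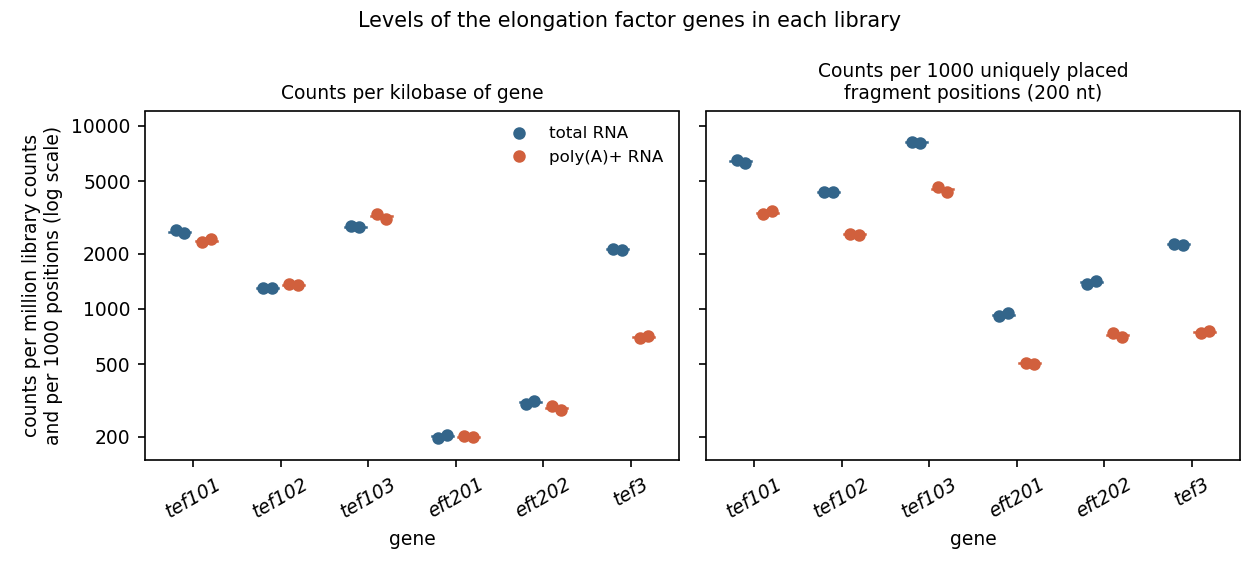
Level of each gene in the 2 total RNA (blue) and 2 poly(A)+ (orange) libraries on a log scale, as RPKM (left) or with uniquely placed positions of 200-nucleotide fragments in place of gene length (right), with points for libraries and short lines for means. On the left *tef3* alone is far lower in poly(A)+ RNA, and on the right all 6 genes are lower there.

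The 2 scalings give different pictures of the copies. Per 1000 uniquely placed positions at 200 nucleotides, the mean level in total RNA was 8154 ± 88.4 (SD, n = 2) for *tef103*, 6406 ± 172 for *tef101*, 4345 ± 10.8 for *tef102*, 2259 ± 16.5 for *tef3*, 1396 ± 34.4 for *eft202* and 928 ± 22.9 for *eft201*. In poly(A)+ RNA it was 4514 ± 203, 3358 ± 72.5, 2558 ± 25.2, 750 ± 10.6, 722 ± 23.01 and 506 ± 5.83 in the same order. This scale is meaningful only if reads that fit several places were left out of the counts. It places *tef102* above *tef3* in both fractions. Positions were taken for fragments wholly inside the annotated gene, so those reaching past the stop codon of *tef102* are not among its positions. How this bears on its level was not tested.

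Summed over copies, EF-1α stood at 6759 ± 98.2 (SD, n = 2) per kilobase in total RNA and 6934 ± 107 in poly(A)+ RNA, and EF-2 at 509.9 ± 12.6 and 488 ± 11.5. Per kilobase, *tef3* was thus above the summed EF-2 genes in both fractions. Per 1000 uniquely placed positions, summed EF-2 was 2324 ± 57.2 in total RNA beside 2259 ± 16.5 for *tef3*. The libraries lay close together, at 2284 and 2365 for EF-2 and at 2271 and 2248 for *tef3*, without an overlap. In poly(A)+ RNA the same sums were 1227 ± 28.8 for EF-2 and 750 ± 10.6 for *tef3*.

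The 6 genes together took 1.88 and 1.85% of all counts in total RNA against 1.43 and 1.405% in poly(A)+ RNA, a difference of -0.45 percentage points. Wilson 95% intervals, which cover counting error only, ran from 1.87 to 1.88% and from 1.85 to 1.86% in total RNA, and from 1.42 to 1.43% and from 1.401 to 1.409% in poly(A)+ RNA. The fractions did not overlap, and the two-sided exact permutation test gave its smallest possible p, 0.333. Of the counts on protein-coding genes alone, the share was 2.19 and 2.14% in total RNA against 2.06 and 2.03% in poly(A)+ RNA.

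The fall of *tef3* was larger than the whole drop in the share. It took 0.706 and 0.699% of all counts in total RNA against 0.231 and 0.235% in poly(A)+ RNA. The EF-1α genes took 1.04 and 1.02% in total RNA against 1.07 and 1.04% in poly(A)+ RNA. The EF-2 genes took 0.132 and 0.136% in total RNA against 0.130 and 0.126% in poly(A)+ RNA.

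Within the EF-1α family, *tef103* took a larger and *tef101* a smaller share of the counts in both poly(A)+ libraries than in either total RNA library. *tef101* gave 40.4 and 39.7% of the family's counts in total RNA against 34.1 and 35.9% in poly(A)+ RNA, and *tef103* gave 41.5 and 41.7% in total RNA against 47.2 and 45.3% in poly(A)+ RNA. *tef102* gave 18.1 and 18.6% in total RNA against 18.6 and 18.8% in poly(A)+ RNA. The Wilson 95% interval of the *tef101* share in the first total RNA library ran from 40.2 to 40.6%. In the poly(A)+ libraries the intervals ran from 33.9 to 34.3% and from 35.8 to 36.1%. Counting error was thus smaller than the difference between the poly(A)+ replicates.

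**Figure D3:**
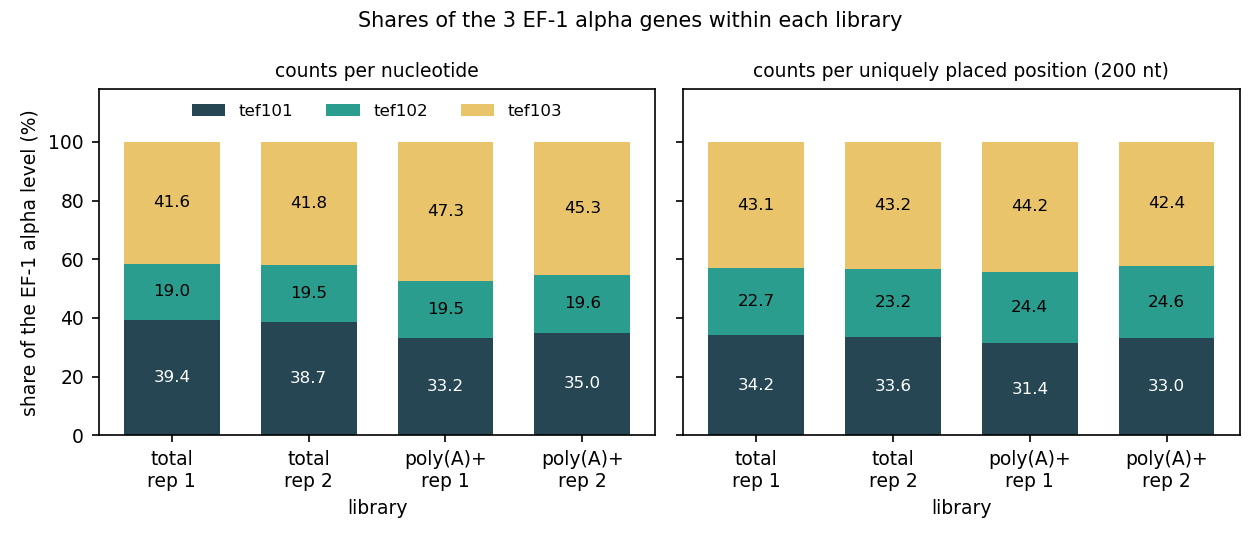
Share of the summed EF-1α level given by each gene in each library, in percent, from counts per nucleotide (left) and counts per uniquely placed position of 200-nucleotide fragments (right). On the left *tef103* is at 41.6 and 41.8% in total RNA against 47.3 and 45.3% in poly(A)+ RNA, and on the right it lies between 42.4 and 44.2% in all 4 libraries.

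Ratios within a library need no scaling between libraries. Per nucleotide, the ratio of *tef103* to *tef101* was 1.06 and 1.08 in total RNA against 1.42 and 1.30 in poly(A)+ RNA, a difference of 0.35 on the log2 scale. The ratio of *tef102* to *tef101* was 0.482 and 0.502 in total RNA against 0.587 and 0.561 in poly(A)+ RNA, a difference of 0.22. Neither ratio overlapped between fractions, and the two-sided exact permutation test gave p = 0.333 for each, the smallest value it can take.

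Both differences shrank when counts were set against uniquely placed positions. At 200 nucleotides, the ratio of *tef103* to *tef101* was 1.26 and 1.29 in total RNA against 1.41 and 1.28 in poly(A)+ RNA, a log2 difference of 0.078 with overlapping fractions (two-sided exact permutation p = 0.667). At 300 nucleotides the ratio was 1.31 and 1.34 in total RNA against 1.49 and 1.35 in poly(A)+ RNA. Its log2 difference was 0.10, without an overlap (two-sided exact permutation p = 0.333). For *tef102* to *tef101* the log2 difference was 0.17 at 200 nucleotides and -0.0010 at 300, where the fractions overlapped.

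The EF-2 pair kept its split in every library. Per nucleotide, *eft202* was 1.53 times *eft201* in each total RNA library, against 1.46 and 1.42 times in the poly(A)+ libraries. The log2 difference of -0.091 exceeded the SD of either fraction, 8.54e-05 and 0.029, with an exact permutation p of 0.333. Per uniquely placed position at 200 nucleotides, the ratio was 1.504 in each total RNA library, against 1.45 and 1.41 in poly(A)+ RNA, since both copies lose nearly the same positions. *eft202* was the higher copy in 4 of 4 libraries.

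Between families, ratios are given per copy, as summed counts over summed length. An EF-2 gene stood at 0.109 and 0.116 of an EF-1α gene in total RNA against 0.106 and 0.104 in poly(A)+ RNA, a log2 difference of -0.097 (exact permutation p = 0.333). Without the second total RNA library this difference was -0.057, and per uniquely placed position it was -0.077 at 200 nucleotides and -0.41 at 300. *tef3* stood at 8.52 and 8.14 times an EF-2 gene in total RNA but at 2.81 and 2.96 times in poly(A)+ RNA, a log2 difference of -1.53 (exact permutation p = 0.333). Per uniquely placed position this ratio was 1.98 and 1.90 in total RNA against 1.19 and 1.25 in poly(A)+ RNA at 200 nucleotides, and its log2 difference was -0.67 at 200 and -0.18 at 300. The distance of *tef3* from the EF-2 genes thus depended on the denominator more than the other 4 ratios did. Over these 5 ratios and the share of counts, Benjamini-Hochberg adjustment leaves each p at 0.333.

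The fractions were compared over all genes with edgeR's quasi-likelihood test, in which a negative log2 fold change means lower in poly(A)+ RNA. At an adjusted p (Benjamini-Hochberg) under 0.05, 9578 of 11234 tested genes were called, 5586 higher and 3992 lower, and the background is thus 85.3% in either direction, 35.5% lower, and 72.4% lower among protein-coding genes. The direction depended on the scaling. With factors from protein-coding genes alone, 6843 genes were higher and 1431 lower, and with library totals alone, 6370 and 1906. The median protein-coding gene stood at -0.93 with TMM normalization over all genes, at 0.040 with factors from protein-coding genes and at -0.18 with library totals, while the median of all tested genes stood at 0.84, 1.81 and 1.58. Fold changes are therefore also given relative to that median.

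All 6 genes were called lower in poly(A)+ RNA with TMM over all genes, against 72.4% of protein-coding genes, but the 5 EF-1α and EF-2 copies turned positive with factors from protein-coding genes, as did *tef102* and *tef103* with library totals. *tef3* fell by 2.34 on the log2 scale (SE 0.0931, edgeR adjusted p = 5.65e-06) and was lower in each of 11 alternative scalings, tests, filters and left-out libraries, from -2.84 to -1.37. Relative to the median protein-coding gene it stood at -1.41, and only 4.91% of protein-coding genes lay below it. In counts, *tef3* had 216336 and 202968 in total RNA against 58915 and 71477 in poly(A)+ RNA, with no overlap between fractions.

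The EF-1α genes stayed near or above the median protein-coding gene. *tef101* had 128849 and 117594 counts in the total fraction against 92859 and 113861 in poly(A)+ RNA, a log2 fold change of -0.91 (SE 0.0898, edgeR adjusted p = 0.000155), which is 0.025 above that median. *tef102* had 57760 and 54946 counts in the total fraction against 50692 and 59455 in poly(A)+ RNA, a log2 fold change of -0.68 (SE 0.100, edgeR adjusted p = 0.000904), 0.25 above the median. *tef103* had 132223 and 123434 counts in the total fraction against 128541 and 143436 in poly(A)+ RNA, a log2 fold change of -0.55 (SE 0.109, edgeR adjusted p = 0.00335), 0.38 above the median. In raw counts, which are not scaled to library size, *tef102* and *tef103* overlapped between fractions, and *tef101* did not. In RPKM none of these genes overlapped, with *tef102* and *tef103* higher and *tef101* lower in poly(A)+ RNA. The share of all genes without such an overlap was not counted, and 85.3% of tested genes were called between fractions.

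The EF-2 genes were likewise close to the median. *eft201* had 15878 and 15586 counts in the total fraction against 13494 and 15789 in poly(A)+ RNA, a log2 fold change of -0.75 (SE 0.111, edgeR adjusted p = 0.000908), 0.18 above the median protein-coding gene. *eft202* had 24469 and 24017 counts in the total fraction against 19800 and 22510 in poly(A)+ RNA, a log2 fold change of -0.84 (SE 0.114, edgeR adjusted p = 0.000621), 0.088 above it. Among protein-coding genes, 51.5, 63.7, 69.3, 59.9 and 55.0% lay below *tef101*, *tef102*, *tef103*, *eft201* and *eft202*. The copies were thus inside the interquartile range of protein-coding genes, from -1.401 to -0.43.

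When the number of uniquely placed positions entered the same fit as an offset, an alternative chosen after the data were seen, the copies moved toward *tef3*. At 200 nucleotides their log2 fold changes were -1.68 for *tef101*, -1.51 for *tef102*, -1.60 for *tef103*, -1.62 for *eft201* and -1.70 for *eft202*. At 300 nucleotides they were -1.80, -1.80, -1.69, -2.12 and -2.18 in the same order. *tef3* stayed at -2.34 in both, since all of its positions are unique. The shift follows from the denominators by construction, and whether it describes the libraries was not tested.

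**Figure D4:**
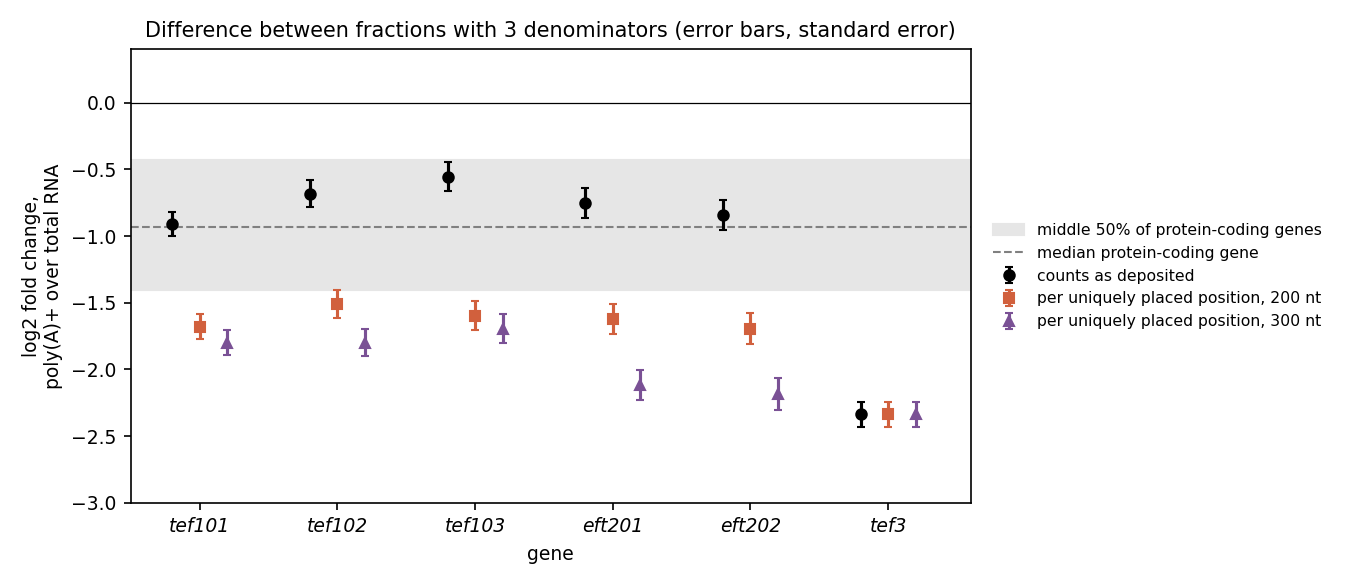
Log2 fold change of poly(A)+ over total RNA from edgeR for the 6 genes, with standard errors, from counts as deposited (black) and with uniquely placed positions as offset at fragments of 200 (orange) and 300 (purple) nucleotides, beside the median (dashed) and interquartile range (grey) of protein-coding genes. The copies lie between -0.91 and -0.55 as deposited and between -2.18 and -1.51 with an offset, *tef3* is at -2.34 in each, and the 5 copies as deposited turn positive when scaled by protein-coding genes alone, as do *tef102* and *tef103* when scaled by library totals.

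Of 5113 protein-coding genes, 101 had under 50% of their 51-nucleotide reads found once, 5 of them the copies described here. The filter on low counts left 45 of these 101 genes in the test, whereas 4860 of the 4908 genes whose reads were all found once passed it. All 5 copies passed, with at least 13494 counts in every library.

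Gene length also moved with the fold change over all protein-coding genes. In 4 length classes of about equal size, the median log2 fold change was -0.59 at 129 to 1226 nucleotides, -0.85 at 1227 to 1791, -1.11 at 1792 to 2564 and -1.49 at 2565 to 15232. *tef3* and both EF-2 genes belong to the longest class. Of its 1252 genes, 16.0% lay below *tef3*, whereas 74.8% lay below *eft201* and 72.9% below *eft202*. The EF-1α genes belong to the class from 1227 to 1791 nucleotides, in which 45.3, 63.3 and 70.1% of genes lay below *tef101*, *tef102* and *tef103*. The part of length in these differences was not tested.

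Transcripts annotated on the opposite strand touch all 5 copies and none touches *tef3*. The non-coding features among them had few counts in total RNA, whereas in poly(A)+ RNA some reached the level of the gene they overlap. Higher counts in poly(A)+ RNA were common over all features. Of 11234 genes tested with TMM over all genes, 5586 were higher, only 395 of them among the 5008 protein-coding genes. Most tested features that were not protein-coding were thus called higher. SPNCRNA.1376, 325 nucleotides long and inside *tef103*, had 76 and 60 counts in the total fraction but 35068 and 37249 in poly(A)+ RNA. Per nucleotide this was 0.234 and 0.185 in total RNA, beside 87.0 and 81.3 for *tef103* itself. In poly(A)+ RNA it was 108 and 115, beside 84.6 and 94.4 for *tef103*. SPNCRNA.957, which shares 882 of its 1106 nucleotides with *tef102*, had 134 and 107 counts in the total fraction against 32824 and 36065 in poly(A)+ RNA. Per nucleotide it stood at 29.7 and 32.6 in poly(A)+ RNA, beside 34.9 and 40.9 for *tef102*.

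The same held for the EF-2 genes. SPNCRNA.3315, 276 nucleotides inside *eft201*, had 12 and 3 counts in the total fraction against 1768 and 1987 in poly(A)+ RNA, or 6.41 and 7.199 per nucleotide beside 5.15 and 6.03 for *eft201*. SPNCRNA.6897, 325 nucleotides inside *eft202*, had 23 and 13 counts in the total fraction against 3368 and 3436 in poly(A)+ RNA, or 10.4 and 10.6 per nucleotide beside 7.52 and 8.55 for *eft202*. Not one read of 51 or 150 nucleotides inside SPNCRNA.6897 occurs once in the genome, although longer read pairs can reach beyond it.

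At *tef101* the overlaps were shorter. SPNCRNA.6769 shares 140 of its 764 nucleotides and had 363 and 458 counts in the total fraction against 11557 and 14599 in poly(A)+ RNA. The protein-coding gene *efr3* shares 52 nucleotides with the end of *tef101* and had 7098 and 6579 counts in the total fraction against 3469 and 3274 in poly(A)+ RNA. On the same strand, *rbm8* shares 17 nucleotides with the start of *tef102* and had 3430 and 3121 counts in the total fraction against 1596 and 1894 in poly(A)+ RNA. The strand setting of the counting is not given in the sources used here, and without strand, reads of a gene and of its antisense partner cannot be told apart. A directional kit is stated for total RNA only, so the poly(A)+ counts of these non-coding features cannot be read as antisense transcripts. Which strand these counts came from was not tested. How these overlaps bear on the fold changes of the copies was not tested.

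Upstream of the genes, the HomolD box was searched for, an element known from the promoters of fission yeast ribosomal protein genes. Its letters CAGTCACA were looked for on both strands from 250 nucleotides before to 50 after each annotated start, and were found in 137 of 5112 protein-coding genes (2.68%). They were found in 4 of the 6 members, all 3 EF-1α genes and *tef3*. The 30-nucleotide windows around them are printed with the box in capitals, in the direction of the gene. In *tef101* the box covers nucleotides 44 to 37 before the start (III:269542-269571), in *tef102* nucleotides 56 to 49 (I:4095065-4095094), in *tef103* nucleotides 59 to 52 (II:627563-627592) and in *tef3* nucleotides 139 to 132 (III:1685495-1685524).
tef101: cttgtggagagCAGTCACAaatcacttagt
tef102: gccacgccagaTGTGACTGctttccaacga
tef103: aacgaacgttaTGTGACTGctttttttgcg
tef3: aagaaaaagaaCAGTCACAttgtaaatatg

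The box reads forward in *tef101* and *tef3* and in reverse in *tef102* and *tef103*. Its letters were not in the windows of *eft201* and *eft202*. The letters TATAAA, searched for in the same way, were in 2459 of 5112 windows (48.1%). Among the members they were in the windows of *tef102* and *eft202* only, where every match read in reverse. In *tef102* the match did not overlap the HomolD box. These are matches of letters and do not show binding.

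Other translation factors were taken from RefSeq product names and are described as a list chosen with earlier results of these data known. Of 50 such genes tested, 0 were higher, 43 lower and 7 not past the threshold with TMM over all genes, whereas 72.4% of all protein-coding genes tested were lower. At an unadjusted p under 0.05, 0 of the 50 were higher as well. DESeq2 called 0 higher and 48 lower, and 4195 of 5102 protein-coding genes lower. With factors from protein-coding genes, 9 were higher, 10 lower and 31 not past the threshold, beside 1319 higher and 1223 lower of 5008 protein-coding genes. With library totals alone, 4 were higher, 25 lower and 21 not past it, beside 912 higher and 1678 lower of 5008. The median of the list was -1.003, beside -0.93 for protein-coding genes.

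Among 6 further elongation genes, 5 were lower and 1 was not past the threshold, with a median of -0.95, beside 72.4% lower among protein-coding genes. With factors from protein-coding genes, 1 was lower, 2 were higher and 3 not past the threshold, with a median of 0.025. In that fit, 1223 of 5008 protein-coding genes were lower and 1319 higher. They include the partners of EF-1α. *tef5*, the EF-1β exchange factor that reloads EF-1α with GTP, stood at -0.95 (SE 0.109, edgeR adjusted p = 0.000294). SPAC29A4.02c, the EF-1γ subunit, had 24801 and 23737 counts in the total fraction against 35653 and 39286 in poly(A)+ RNA and stood at -0.016 (SE 0.119, edgeR adjusted p = 0.902). The eIF5A genes *tif51* and *tif512*, whose product helps ribosomes past difficult peptide bonds, stood at -0.96 and -0.69. The lowest was *tuf1* at -1.64 (SE 0.140, edgeR adjusted p = 8.34e-05), which encodes EF-Tu, the counterpart of EF-1α in mitochondria. Groups follow the words of product names, so *tuf1* is counted here and *mti2*, named IF-2Mt, among the initiation genes. The groups other than the mitochondrial one are therefore not purely cytoplasmic.

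Of 34 initiation genes, 32 were lower and 2 not past the threshold, with a median of -1.10, beside 72.4% lower among protein-coding genes. With factors from protein-coding genes, 7 were lower, 5 higher and 22 not past the threshold, with a median of -0.13. Among 5008 protein-coding genes, this fit called 1223 lower and 1319 higher. The lowest was *tif303*, the eIF3c subunit, with 26508 and 26743 counts in total RNA against 6041 and 8643 in poly(A)+ RNA, a log2 fold change of -2.53 (SE 0.110, edgeR adjusted p = 7.3e-06). *tif303* is 2890 nucleotides long, and its change was close to that of *tef3*. The highest of those called was *tif11*, encoding eIF1A, at -0.42 (SE 0.106, edgeR adjusted p = 0.0103).

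Of 6 termination genes, 3 were lower, from *erf1*, the class I release factor, at -1.20 (SE 0.103, edgeR adjusted p = 8.39e-05) to *dom34*, a relative of eRF1 that acts on stalled ribosomes, at -0.75 (SE 0.156, edgeR adjusted p = 0.0043). Of 4 genes whose product name says mitochondrial, 3 were lower, from *mef1*, a mitochondrial elongation factor G, at -1.70 (SE 0.142, edgeR adjusted p = 7.46e-05) to *mti3*, a mitochondrial initiation factor, at -0.74 (SE 0.275, edgeR adjusted p = 0.0427). The remaining genes of both groups did not pass the threshold, and 72.4% of protein-coding genes were lower. With factors from protein-coding genes, 0 termination genes were lower and 1 was higher, and 2 mitochondrial genes were lower and 1 higher. The same fit called 1223 of 5008 protein-coding genes lower and 1319 higher. Without the first total RNA library or without the second poly(A)+ library, 2 mitochondrial genes were lower.

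**Figure D5:**
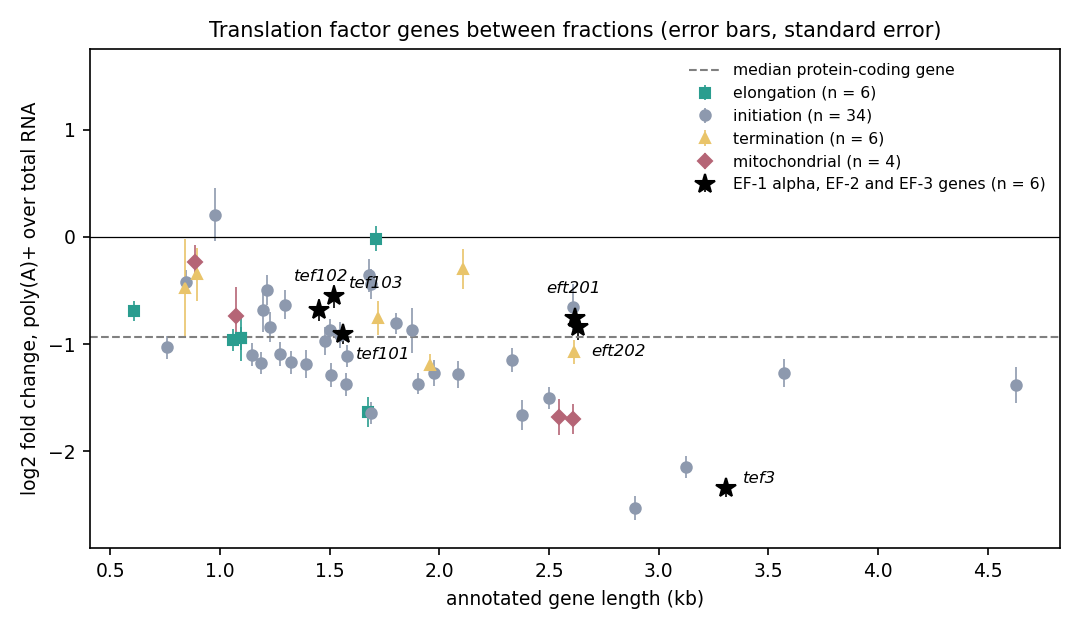
Log2 fold change of poly(A)+ over total RNA from edgeR against annotated gene length in kilobases, for 50 translation factor genes by group and the 6 elongation factor genes (stars), with standard errors and the median protein-coding gene as a dashed line. *tef3* at -2.34 and *tif303* at -2.53 lie lowest, the EF-1α and EF-2 copies lie between -0.91 and -0.55, and the 5 copies turn positive when scaled by protein-coding genes alone, as do *tef102* and *tef103* when scaled by library totals.

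For each member, the 2 protein-coding genes with the nearest profile were found by the Euclidean distance of log2 TMM-normalized counts per kilobase over the 4 libraries, among 5002 genes. *tef101* lay nearest to the ribosomal protein genes *rpl8* (distance 0.219) and *rps21* (0.232), and *tef102* to *pmp20* (0.161) and the ribosomal protein gene *rps1601* (0.166). *tef103* lay nearest to *shm1*, a serine hydroxymethyltransferase gene (0.0953), and *sam1*, an S-adenosylmethionine synthetase gene (0.255). *eft201* lay nearest to *atp4* (0.130) and *clc1* (0.153), and *eft202* to the beta tubulin gene *nda3* (0.139) and to *fkh1* (0.186). *tef3* had no neighbour as near, with the ribosomal protein gene *rpl4101* at 0.447 and the plasma membrane proton pump gene *pma1* at 0.511, whose own log2 fold changes were -2.19 and -2.34. The distance takes in both the level and the difference between fractions, over 4 libraries only.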

How the data were processed

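Vegetative cells of 1 fission yeast strain were sequenced as total and as poly(A)+ RNA, with 2 biological replicates each. The authors trimmed adapters (cutadapt 1.15 or fastp 0.23.1), aligned the reads with STAR 2.6.1d and counted them on genes with featureCounts of Subread 2.0.6, and deposited these raw counts without normalization or filter. Genome build, strand setting, overlap setting and the treatment of reads with several places are not given in the sources used here. The header of each table has 9 cells over 8 fields, so that the counts of replicate 1 stand under the name of the length column, and fields were read by position. The deposited tables hold 12684 features, of which 12602 (99.35%) matched the RefSeq annotation of ASM294v3, 12594 with the same start and 12601 with the same end. The totals of 25530272 to 30650533 counts set the counting error of shares, given as Wilson 95% intervals.

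Total and poly(A)+ libraries were tested against each other in R 4.3.3 with edgeR 4.0.16 (TMM, filterByExpr, glmQLFit and glmQLFTest, Benjamini-Hochberg adjustment, threshold 0.05), fitted on all genes. The standard error is the size of the log2 fold change over the square root of F. Ratios and shares were computed in Python 3.11.15 and tested with two-sided exact permutation tests, which with 2 libraries against 2 give no p below 0.333. Placement was taken from exact matches of all reads of 35, 51 and 150 nucleotides, and of read pairs at fragments of 200 and 300 nucleotides, to both strands of the genome. Promoter windows, from 250 nucleotides before to 50 after the annotated start, were read from the same genome.

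The alternatives were DESeq2 1.42.0 as test, its size factors, library totals or factors from protein-coding genes as scaling, a replicate block, no filter beyond 1 count, a mean of at least 50 counts, each library left out in turn, and for ratios and shares other lengths, a pseudocount of 1 or other denominators. Offsets from uniquely placed positions and fragments of 300 nucleotides were chosen after seeing the data. The edgeR script was tested on simulated data. The members, the gene lists and the tests were chosen with earlier results of these data known. Named genes are the 6 members, the 2 nearest profiles of each (prior count 0.5), the highest and lowest called gene of each translation factor group and the features that overlap a member. EF-1β, EF-1γ and *tif51* were added to the named genes with their values known.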

Additional observations from a re-analysis of the deposited data

How the results depend on the processing

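*tef3* was lower in poly(A)+ RNA and past the threshold in each of 11 alternatives, from -2.84 to -1.37 (adjusted p from 8.32e-87 with DESeq2 to 0.000323 with edgeR). Offsets from uniquely placed positions cannot move it, since all its positions are unique. The 5 copies kept their direction and call in 11 of 13 alternatives each, the offsets included. With library totals, *tef101*, *eft201* and *eft202* stayed negative but were not called, *tef102* turned positive without a call and *tef103* was called higher. With factors from protein-coding genes all 5 turned positive, and *tef102* and *tef103* were called higher. With library totals alone, the log2 fold changes were -0.16 for *tef101*, 0.063 for *tef102*, 0.19 for *tef103* (edgeR adjusted p = 0.0296), -0.0081 for *eft201* and -0.099 for *eft202*, and 25 of 50 translation factor genes were lower and 4 higher. With TMM factors from protein-coding genes they were 0.065, 0.29 (edgeR adjusted p = 0.0459), 0.42 (0.0171), 0.22 and 0.13 in the same order, and 10 list genes were lower and 9 higher. Of 5008 protein-coding genes, 912 were higher and 1678 lower with library totals, and 1319 higher and 1223 lower with protein-coding factors. These scalings shift all genes together by construction. The number of called genes was between 8274 and 10026 in 11 alternatives.

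With uniquely placed positions as denominator, the log2 difference between fractions became 0.078 (200 nucleotides) and 0.10 (300) for *tef103* to *tef101*, -0.0010 (300) for *tef102* to *tef101*, -0.41 (300) for EF-2 to EF-1α, and -0.67 (200) and -0.18 (300) for *tef3* to EF-2. Of protein-coding counts, the share of the 6 genes differed by -0.12 percentage points.

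With each library left out in turn, where the lone library of a fraction is assumed to vary like the other fraction, log2 fold changes ranged from -0.93 to -0.87 (*tef101*), -0.69 to -0.62 (*tef102*), -0.60 to -0.46 (*tef103*), -0.78 to -0.69 (*eft201*), -0.88 to -0.76 (*eft202*) and -2.34 to -2.29 (*tef3*), called genes from 8611 to 9943, and lower list genes from 36 to 44. The ratio differences ranged from 0.19 to 0.25 (*tef102* to *tef101*), 0.28 to 0.42 (*tef103* to *tef101*), -0.11 to -0.071 (*eft202* to *eft201*), -0.14 to -0.057 (EF-2 to EF-1α) and -1.57 to -1.49 (*tef3* to EF-2), and the share difference from -0.46 to -0.44. The replicates differed unevenly, with a chi-square of counts per degree of freedom of 8.60 in total RNA and 114 in poly(A)+ RNA.

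The fractions share replicate numbers, but the deviations of replicate 1 from its fraction's mean were not correlated between fractions (r = -0.018 across 11234 genes, which are not independent replicates), so the numbers were not taken to pair the libraries. With the replicate block, 9418 genes were called, 43 list genes were lower, and the members stood at -0.91, -0.68, -0.56, -0.76, -0.85 and -2.34.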
